A study of Gallus gallus with 5 samples.

Results

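Among the chromatin regions that were accessible in every library of sorted embryonic chick retinal cells, 2665 were ranked higher in cells that had switched on the ThrbCRM1 reporter than in cells that had not. They were selected on the deposited fold enrichments themselves. Each library's unique intervals were ranked by their highest fold enrichment over local background, the strongest 50000 were kept, and overlapping intervals of the 5 libraries were merged into 79104 regions. Of these, 27432 held a kept interval of every library, and 24749 of those lay on numbered chromosomes and were under 2000 bp wide. Within each library the 24749 shared regions were placed on a percentile scale from 0 (strongest) to 100 (weakest). A region was chosen when its weakest percentile in the positive libraries was at least 10 points stronger than its strongest percentile in the negative libraries. The distance between those 2 percentiles is called the gap below.

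Accessibility was measured with ATAC-seq, which relies on a transposase, Tn5, that cuts and tags DNA where it is not covered by nucleosomes. Chick (Gallus gallus) retinas were taken at embryonic day 5, electroporated with a GFP plasmid under the ThrbCRM1 element and a Cherry plasmid under the CAG promoter, and cultured for 48 h. Papain-dissociated cells were sorted into Cherry+/GFP+ cells (ThrbCRM1+, 3 libraries, here positive) and Cherry+/GFP- cells (ThrbCRM1-, 2 libraries, here negative). All sorted cells of both groups therefore carried the electroporation marker, and the groups differ in detected reporter, not in having taken up DNA. No source used here says whether replicates came from separate embryos or pools, so the spread between libraries may be technical.

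An accessible region is one where nucleosomes have been displaced, often by transcription factors, and such regions include promoters, enhancers and insulators. ThrbCRM1 is an enhancer of Thrb, the gene of a thyroid hormone receptor made in cones, and its reporter marks restricted retinal progenitors that go on to form cones and horizontal cells. Reporter-negative cells are a mixture of the other progenitors and early neurons of the retina. Otx2 and Onecut factors, which the study concerns, are known to act together on ThrbCRM1. A region that is accessible in both populations but ranks differently may be accessible in more cells of a population or more strongly in each cell, and peak lists from bulk cells cannot tell these apart. The sorted populations could not be checked against cell type markers here, because the lists hold intervals and no expression.

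The lists held 99859 to 126834 rows in the positive libraries and 117660 and 155087 rows in the negative libraries, and they give no read counts, so depth is unknown. Fold enrichments were not normalized between libraries. A value of 5 in one list and 5 in another need not mean the same accessibility, which is why regions were compared by percentile, and a percentile says how a region stands among the shared regions of its own library. Libraries carry names of 2 kinds inside the peak lists. Replicate 1 of each group has the first kind and the other 3 libraries the second, and these naming series were treated as a possible batch. Coordinates are those of the lists, with 1-based starts, in galGal5 per the submitters' processing notes. No genome or annotation of that build was used here, so sequences, genes and motifs of the regions are not given.

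The 2665 regions are 10.8% of the 24749 shared regions. By the same rule turned round, 2689 regions (10.9%) were ranked higher in the negative libraries and are called mirror regions below. Since the rule used these values, neither share is a result and no test of the group difference was made on them. Without negative replicate 1 the rule chose 4073 of 26030 shared regions (15.6%) and without negative replicate 2 it chose 4181 of 26528 (15.8%). A single negative library then set the gap. Mirror regions were 15.8% and 16.3% under these 2 settings.

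The chosen regions sat in the stronger part of the positive lists, though seldom at the top, and deep in the weaker part of the negative lists. Their median percentile was 38.1, 37.5 and 37.3 in positive replicates 1, 2 and 3, against 78.8 and 82.3 in negative replicates 1 and 2. Median fold enrichment was 6.34, 6.69 and 7.34 in the positive lists and 4.24 and 4.55 in the negative lists. Over all shared regions it was 5.53, 5.66, 6.24, 5.98 and 6.90 in the same order of libraries. The gap had a median of 21.8 points, and in 1488 regions (55.8%) it was 20 points or more, in 423 (15.9%) 40 or more and in 72 at least 60. As a measure of replicate spread, the 3 positive percentiles of a chosen region spanned a median of 12.5 points and the 2 negative percentiles 6.52 points. For all shared regions these spans were 14.3 and 7.30 points.

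**Figure D1:**
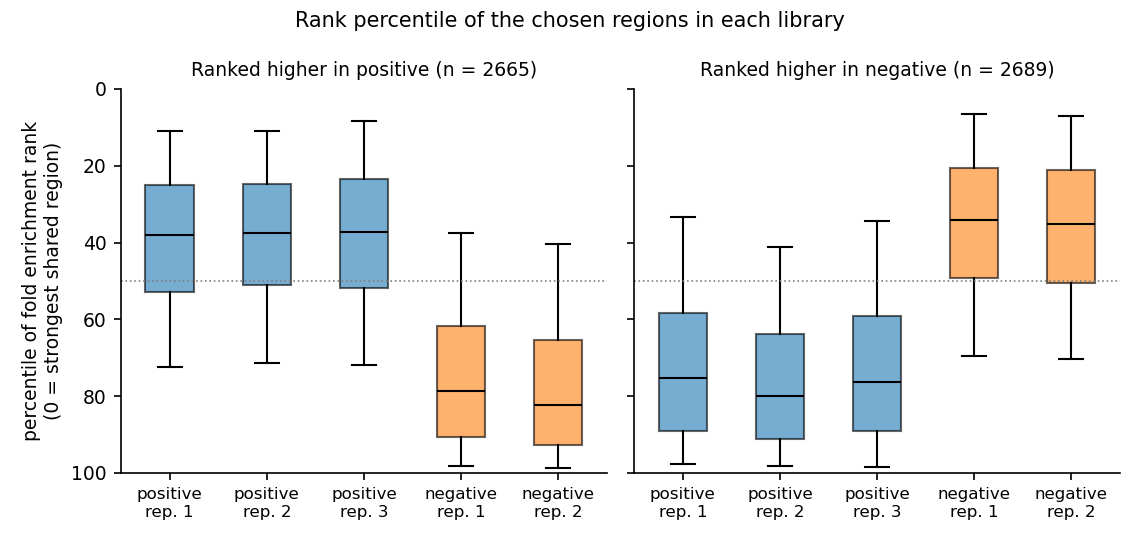
Rank percentile (0 strongest, axis reversed) of the 2665 regions ranked higher in positive libraries (left) and the 2689 mirror regions (right) in each of the 5 libraries. Boxes show the quartiles with the median line and whiskers the percentiles 5 and 95 over regions, and the dotted line marks 50. The left medians lie at 37.3 to 38.1 in positive and at 78.8 and 82.3 in negative libraries, a separation that the choice of regions sets.

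Most of these regions were of middle strength in reporter-positive cells, which was not particular to them. Mirror regions stood alike in their own libraries, at median percentiles of 34.2 and 35.3 in negative replicates 1 and 2. The rule used these percentiles and leaves little room at the weak end of the scale. The bands that follow were not counted over all shared regions. In 58 of them (2.18%) all 3 positive percentiles were stronger than 10, in 341 the weakest lay from 10 to 25, in 1149 from 25 to 50, in 935 from 50 to 75, and in 182 at 75 or beyond. In the negative libraries, 1322 regions (49.6%) stood at percentile 75 or weaker in both lists. By the same bands of positive strength, from the strongest, 2 of 58, 52 of 341, 366 of 1149, 720 of 935 and 182 of 182 did so. The rise along the bands follows in part from the rule, which puts the negative percentiles at least 10 points weaker than the positive ones and so sets the last count in full.

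For regions chosen anew in the second naming series, the direction mostly held in the first. Choosing regions in the second naming series alone (positive replicates 2 and 3 against negative replicate 2, same 10-point gap) gave 4747 regions. In the first series, positive replicate 1 was stronger than negative replicate 1 by 10 points or more in 3245 of these (68.4%), against 26.6% of all shared regions. The opposite difference of 10 points was seen in 197 (4.15%), against 26.2% of all shared regions. The 4865 regions chosen as stronger in the negative library of the second series behaved as the reverse image, with 3380 (69.5%) stronger in negative replicate 1 and 260 (5.34%) stronger in positive replicate 1. Choosing in the first series and reading in the second gave 3245 of 6583 (49.3%) stronger in both positive libraries by 10 points, where 19.2% of all shared regions were, and 260 (3.95%) stronger in the negative library, where 19.7% were. Both readings count the same 3245 regions over different totals, so they are a single overlap and not separate checks. A reading in the second series has to satisfy 2 positive libraries and not 1, which lowers both its shares. Ranked by −log10 p value in place of fold enrichment, 3130 of 4201 regions (74.5%) held in the first series, against 25.7% of all shared regions. These are counts with no test, since each group has a single library in the first series, and the set of shared regions itself rests on all 5 lists.

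**Figure D2:**
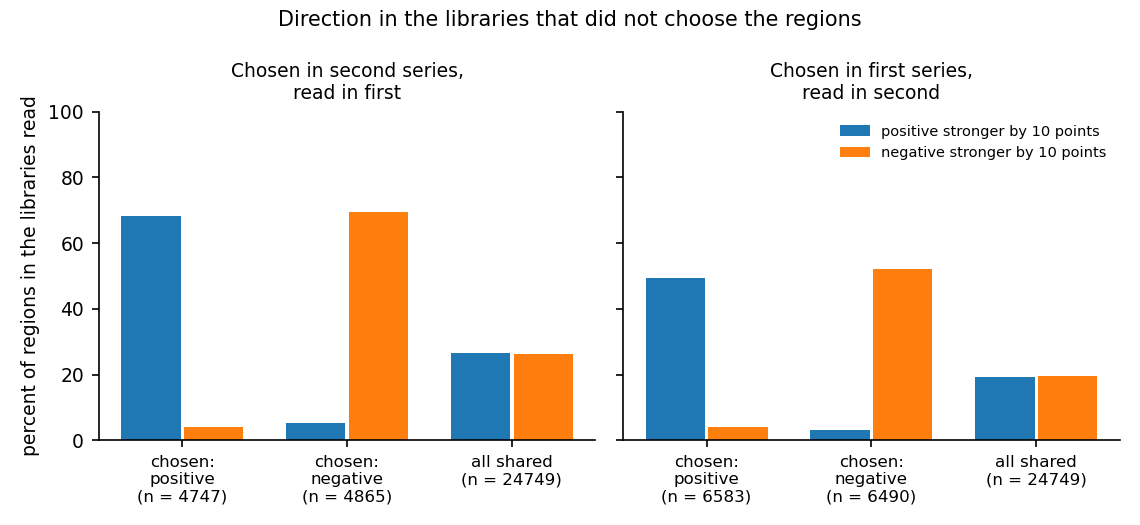
Percent of regions (vertical axis) in which the positive libraries (blue) or the negative library (orange) was stronger by at least 10 percentile points in the naming series that was not used to choose the regions. Left, regions chosen in the second series and read in the first, with 68.4% of 4747 positive-chosen regions holding their direction. Right, the reverse reading, in which the same 3245 regions are 49.3% of 6583. All 24749 shared regions stand beside them.

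The widest gap belonged to a 762 bp region on chromosome 3 from 98479553 to 98480314. It stood at percentile 10.7, 10.9 and 7.17 in positive replicates 1, 2 and 3 and at 99.8 and 94.98 in negative replicates 1 and 2, a gap of 84.1 points. Its fold enrichment was 9.87, 10.3 and 12.2 in the positive lists and 2.85 and 3.67 in the negative lists. In reporter-positive cells it was among the stronger shared regions, and in negative cells it was near the limit of the kept lists, at ranks 49131 and 41162 of 50000. The second, 846 bp on chromosome 2 from 76679298 to 76680143, had positive percentiles of 16.4, 5.44 and 10.8 and negative percentiles of 95.6 and 97.4. The third lay on chromosome 1 from 97498422 to 97499257 and was the strongest of the leading 12 in positive replicates 1 and 2, at percentiles 3.13 and 4.50, with 7.50 in replicate 3. In the negative libraries it stood at 85.9 and 94.7. Its fold enrichment was nearly equal in the 3 positive lists, at 12.1, 12.1 and 12.1, and 3.84 and 3.67 in the negative lists. All 3 regions thus kept their positive and negative libraries far apart, with no overlap between the groups, as the rule requires.

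The other 9 regions of the leading 12 had gaps of 70.1 to 76.4 points. A 523 bp region on chromosome 2 from 73247535 to 73248057 stood out by positive replicate 3, where it reached percentile 2.69, against 14.1 and 17.1 in replicates 1 and 2. The longest, 1625 bp on chromosome 4 from 71003161 to 71004785, ranked 10.7, 15.1 and 5.95 in the positive lists and 91.1 and 93.8 in the negative lists. In negative replicate 2 its kept intervals covered 1557 bp in total with 5 summits, against 458 to 914 bp and 1 to 3 summits in the positive lists. In negative replicate 1 they covered 309 bp with 2 summits, so the negative libraries differed from each other there. On chromosome 3, the regions from 22553226 to 22554099 and from 23503778 to 23504453 had gaps of 72.4 and 75.7 points. The shortest of the 12, 344 bp on chromosome 2 from 107538574 to 107538917, had positive percentiles of 19.9, 16.2 and 14.8 and negative percentiles of 92.1 and 94.9. The remaining 4 were on chromosomes 2 (from 115512607 to 115513443), 3 (from 80678508 to 80679454), 5 (from 33259805 to 33260663) and 7 (from 16418686 to 16419135). Chromosomes 2 and 3 held 4 each of the 12 regions. They held 423 and 318 of all 2665 chosen regions, and 3517 and 2752 of the 24749 shared regions. Over the 12, fold enrichment ran from 7.87 to 14.1 in the positive lists and from 2.85 to 4.33 in the negative lists, and −log10 q in the negative lists was still 4.08 to 19.1, where 1.30 corresponds to the q value of 0.05 at which the lists end.

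**Figure D3:**
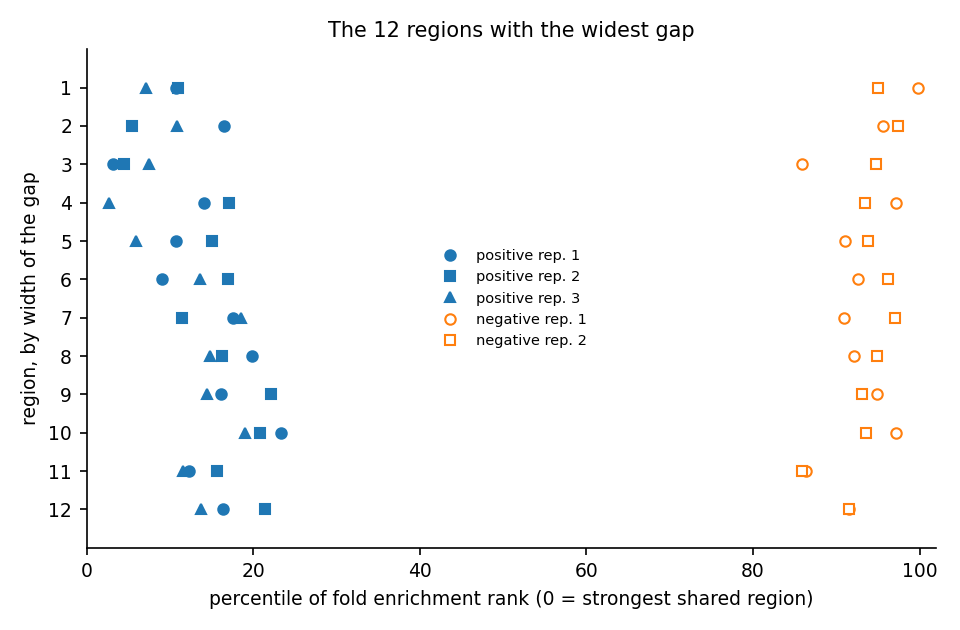
Rank percentile (horizontal axis, 0 strongest) of the 12 regions with the widest gap, ordered from the widest at the top, in each of the 5 libraries. Positive libraries (filled blue) lie between 2.69 and 23.3 and negative libraries (open orange) between 85.9 and 99.8.

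The 5 chosen regions that ranked strongest in the positive libraries were of another kind, since most stayed strong in negative cells. The first, 900 bp on chromosome 8 from 8816074 to 8816973, stood at percentile 1.12, 0.0647 and 0.0566 in the 3 positive lists. Its fold enrichment there was 13.5, 17.7 and 19.4. In negative replicates 1 and 2 it stood at 16.1 and 13.4, with fold enrichments of 9.40 and 11.2, so its gap was 12.3 points. The exception was a 921 bp region on chromosome 2 from 128699600 to 128700520. Its positive percentiles were 2.05, 1.69 and 0.101, where the fold enrichment was 12.8, 13.5 and 18.8, and its negative percentiles were 48.4 and 62.0, where it was 6.09 and 5.97. It thus joined the top of the positive lists to the middle of the negative lists, with a gap of 46.4 points. The others lay on chromosome 1 from 21679019 to 21679898, chromosome 6 from 15041363 to 15042072 and chromosome 21 from 5630789 to 5631434, with gaps of 10.9, 18.2 and 24.4 points. In all 5 the strongest summits of the 5 libraries lay within 18 to 76 bp of each other.

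At the limit of the rule the regions differed little from those left out. The 3 chosen regions with the smallest gaps, on chromosome 1 from 22387137 to 22387837, chromosome 2 from 91010085 to 91010831 and chromosome 3 from 73181378 to 73182413, had gaps of 10.00, 10.01 and 10.03 points. The 3 nearest regions left out, on chromosome 17 from 4160321 to 4160946, chromosome 19 from 8000321 to 8001493 and chromosome 10 from 939317 to 939650, had gaps of 9.99, 9.98 and 9.96 points. Without any minimum gap, the groups did not overlap in 5720 of the 24749 shared regions with the positive libraries stronger. They did not overlap in 5307 of the 24749 with the negative libraries stronger.

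The chosen regions were narrower in the median than shared regions in general. Their median width was 770 bp (quartiles 608 and 1011 bp), against 828 bp in mirror regions and 867 bp over all shared regions. Of the chosen regions, 26.0% were 1000 bp or wider, against 38.1% of all shared regions, while 63.0% were 500 to under 1000 bp, against 50.1%. By width, 10.1% of shared regions under 500 bp were chosen, 14.8% of those from 500 to under 750 bp, 12.2% of those from 750 to under 1000 bp, 7.46% of those from 1000 to under 1500 bp and 6.99% of the wider ones. Strength moved with width, since the median of the mean percentile over the 5 libraries was 61.8 for regions from 500 to under 750 bp and 35.2 for those from 1000 to under 1500 bp. At percentile 20 to 50 in positive replicate 1 the median width was 788 bp for chosen regions and 957 bp for regions that were neither chosen nor mirror. At percentile 70 to 90 in negative replicates 1 and 2 it was 744 and 758 bp for chosen regions and 694 and 695 bp for the others. Each band fixes strength in a single library, whereas width comes from the merged intervals of all 5. The rule makes chosen regions stronger in the positive and weaker in the negative lists. The bands therefore cannot show whether width differed at like strength. Mirror regions had their highest share one step wider, at 14.9% of regions from 750 to under 1000 bp, and made up 3.94% of those of 1500 bp and over.

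In the negative libraries the intervals at the chosen regions were short. The kept intervals covered a median of 521 and 492 bp in negative replicates 1 and 2, where shared regions in general covered 712 and 713 bp. In positive replicates 1, 2 and 3 they covered 700, 543 and 535 bp, close to the 708, 548 and 551 bp of all shared regions. Weaker regions have shorter intervals, so regions of like strength were also compared. Among regions at percentile 70 to 90 in negative replicate 1, the median was 490 bp for 997 chosen regions and 523 bp for 3826 regions that were neither chosen nor mirror, and in negative replicate 2 it was 472 bp for 980 and 531 bp for 3828. At percentile 20 to 50 in positive replicate 1 it was 720 bp for 1413 chosen regions and 812 bp for 5578 others. Positive replicates 2 and 3 had 566.5 and 551 bp for chosen regions and 686.5 and 679 bp for the others. In these bands the chosen regions had shorter intervals than the others. Mirror regions at percentile 20 to 50 in positive replicates 1, 2 and 3 had shorter ones still, at 687, 509 and 505 bp. Short intervals in that band were thus not particular to the chosen regions. At percentile 70 to 90 in negative replicates 1 and 2 few mirror regions lie (127 and 142). Their medians there, 526 and 586.5 bp, were not below those of the others. In the positive lists mirror regions at percentile 70 to 90 had 524, 364 and 381.5 bp. At percentile 70 to 90 in the positive lists few chosen regions lie (185, 156 and 162). Their intervals had medians of 536, 354.5 and 467.5 bp, against 515, 352 and 399.5 bp for the others, nearly equal in positive replicate 2. No chosen region was weaker than percentile 88.3, 85.6 and 88.1 in positive replicates 1, 2 and 3. The difference was thus not seen in that band, but chosen regions do not fill it, so strength was not alike there. Several summits within a region were also less common, at 41.4% ± 3.22 of chosen regions and 48.1% ± 3.54 of all shared regions (mean and SD over n = 5 libraries). Mirror regions had 41.0% ± 4.99. Within libraries, the chosen share lay below the mirror share in positive replicate 1 and negative replicate 2 and above it in the others. These shares were not taken at like strength.

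The strongest summit of a chosen region usually lay at the same place in both populations. In 1976 of the 2665 regions (74.1%) the strongest summits of all 5 libraries fell within 100 bp, against 69.8% of all shared regions and 66.2% of mirror regions. Positive libraries placed the summit within 100 bp of each other in 94.4% to 95.2% of chosen regions (3 pairs), against 87.4% to 88.0% of all shared regions. The negative pair did so in 87.9%, against 89.5%, and the 6 pairs of a positive and a negative library in 86.3% to 87.5%, against 84.8% to 86.8%. In mirror regions those 6 pairs had 84.4% to 88.0%. In mirror regions the order was turned round, with 94.8% for the negative pair and 83.7% to 84.3% for the positive pairs, so agreement was highest among the libraries in which a set ranked strong. The count over all 5 libraries holds 3 positive pairs and 1 negative pair. Its shares for chosen and mirror regions are therefore not on equal terms.

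In 62 chosen regions (2.33%) the strongest summit had moved between populations, meaning that replicates of each population agreed within 100 bp and the 2 population means lay over 200 bp apart. This held for 1.16% of all shared regions and 0.855% of mirror regions. The criterion asks for agreement of 3 positive but only 2 negative libraries, and positive libraries agreed less often in mirror regions. The shares of chosen and mirror regions are therefore not on equal terms. The median distance was 443 bp and the median width of these 62 regions 1100 bp. The 3 with the widest gaps, named after their values were seen, were these. A 580 bp region on chromosome 6 from 11278438 to 11279017 had its summit 154, 127 and 129 bp from its start in positive replicates 1, 2 and 3 and 388 and 428 bp from it in negative replicates 1 and 2. In a 788 bp region on chromosome 5 from 19475262 to 19476049, the summit lay at 411, 436 and 443 bp in the positive and at 153 and 191 bp in the negative libraries. The third, 1073 bp on chromosome 2 from 80996863 to 80997935, had it at 176, 180 and 171 bp against 833 and 828 bp. Here the stronger ranking in positive cells belonged to another summit than the one that led in negative cells, in the same merged region.

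The chosen regions made up a smaller share of the shared regions on the small chromosomes over regions of every strength. They made up 11.5% of the 14729 shared regions on chromosomes 1 to 5, 10.6% of the 4239 on chromosomes 6 to 10 and 8.98% of the 5781 on chromosome 11 and up, most of which are gene-dense microchromosomes. Mirror regions fell more steeply, from 12.4% to 10.6% and 7.02%. Among chromosomes with at least 200 shared regions, chromosome 12 had the highest share of chosen regions (79 of 626, 12.6%) and chromosome 28 the lowest (10 of 207, 4.83%), with 10.2% and 1.93% mirror regions. Strength differed a little between the classes, so the share was also taken among regions with a mean percentile of 25 to 75 over the 5 libraries. There it was 17.6%, 15.5% and 12.8%, in the same order of classes, and 17.5%, 14.1% and 9.10% for mirror regions. Among the strongest regions, at a mean percentile under 25, it was 2.72%, 2.23% and 1.16%. Among the weakest, at 75 and beyond, it was 4.56%, 5.46% and 5.36%, so the lower share of chosen regions on small chromosomes did not hold there. For mirror regions it did, at 10.5%, 9.61% and 6.83%, and among the strongest they had 2.04%, 1.76% and 0.484%.

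Along the chromosomes, regions that ranked higher in positive cells were more often neighbours at 5 to 20 kb than shared regions in general. Of the shared regions that were the next one to a chosen region at that distance, 304 of 1941 (15.7%) were chosen too, against 10.6% of all neighbours at that distance. The mirror regions had 16.2% of their own kind at that distance, against 10.4% of all neighbours. At 20 to 50 kb the share of chosen neighbours was 12.7% (10.2% of all neighbours), and at 50 to 200 kb it was 10.6% (10.7% of all neighbours). In all, 866 chosen regions (32.5%) had another within 50 kb, and 31.2% of mirror regions had another mirror region within that distance. Shared regions lie densely, and 93.6% of them had another shared region of any kind within 50 kb. The share of all shared regions with a chosen region that near was not counted. The 32.5% and 31.2% therefore do not by themselves show clustering.

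Closer in, neighbours of opposite direction were common. Within 5 kb of a mirror region, 91 of 387 neighbouring shared regions (23.5%) were chosen regions, against 12.6% of all neighbours at that distance. Seen from the chosen regions, 91 of 684 neighbours within 5 kb (13.3%) were mirror regions, against 7.14% of all neighbours, while 11.7% were chosen regions themselves. These 91 pairs lay on 16 chromosomes, and in 36 of them both gaps were 20 points or more. Ranked by −log10 p value the share of mirror neighbours was 12.3%, against 9.33% of all neighbours, so the excess was smaller there. In the second naming series alone it was 18.1%, against 14.4% of all neighbours.

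**Figure D4:**
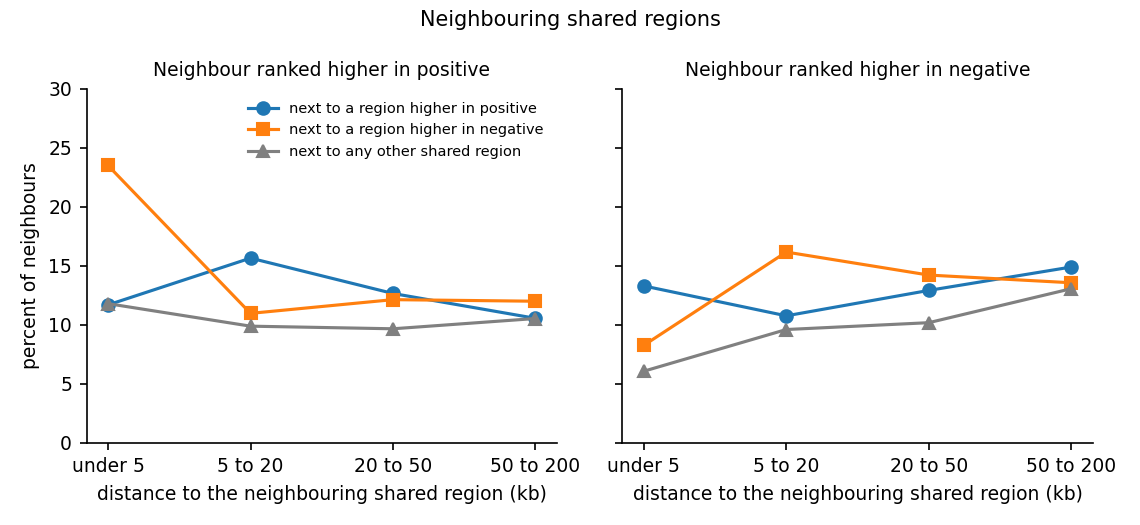
Percent of neighbouring shared regions (vertical axis) that were ranked higher in positive libraries (left) or in negative libraries (right), by the distance to the neighbour in kb. Lines show neighbours of regions higher in positive (blue circles), of mirror regions (orange squares) and of all other shared regions (grey triangles). Under 5 kb the orange line on the left reaches 23.5%, and at 5 to 20 kb the highest share on each side is that beside regions of the same direction (15.7% and 16.2%).

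The pairs with the widest gaps on both sides, named after their values were seen, are given by library. On chromosome 4, the chosen region from 53974538 to 53975157 stood at percentile 40.5, 37.0 and 29.2 in positive replicates 1, 2 and 3 and at 92.6 and 99.0 in negative replicates 1 and 2. A mirror region 3414 bp away, from 53970493 to 53971123, stood at 95.8, 94.5 and 98.1 in the positive and at 46.5 and 39.6 in the negative libraries. The next pair held a region of the leading 12, on chromosome 3 from 80678508 to 80679454, with positive percentiles of 16.1, 22.1 and 14.4 and negative percentiles of 94.8 and 93.1. At 1875 bp from it, the region from 80681330 to 80682140 had positive percentiles of 87.0, 80.4 and 69.5 and negative percentiles of 14.4 and 25.8. The opposite order of the populations within each pair is set by the choice of the regions, and the pairs were taken from those within 5 kb. Fold enrichment is a ratio over local background. Whether near neighbours affect each other's values through that background was not tested.

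Linking chosen regions that lay within 50 kb of another gave 6 groups of 5 or 6 regions, while 1799 chosen regions had no other within that distance. The first group of 6, on chromosome 2 from 136069015 to 136161694, held 10 shared regions in 92.7 kb, of which 6 were chosen and 1 was a mirror region. Its leading region, from 136088602 to 136089284, stood at percentile 14.8, 22.0 and 20.4 in the positive and at 74.5 and 71.5 in the negative libraries. The span also held 1 region listed in the positive libraries alone and 1 listed in the negative libraries alone. The other group of 6, on chromosome 4 from 29623299 to 29728459, held 11 shared regions in 105 kb. Of these, 6 were chosen, none was a mirror region, and in 9 the groups did not overlap with the positive libraries stronger. Over all 24749 shared regions, 5720 had the groups apart in that direction. The same span also held 2 regions listed in the negative libraries alone and 0 listed in the positive libraries alone. Its leading region, from 29673815 to 29674593, stood at 29.5, 22.3 and 10.9 in the positive and at 90.3 and 99.9 in the negative libraries. In both groups most of the shared regions ranked the same way, with others between them that did not. That majority is set by naming the groups with most chosen regions, and other spans were not counted for comparison.

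**Figure D5:**
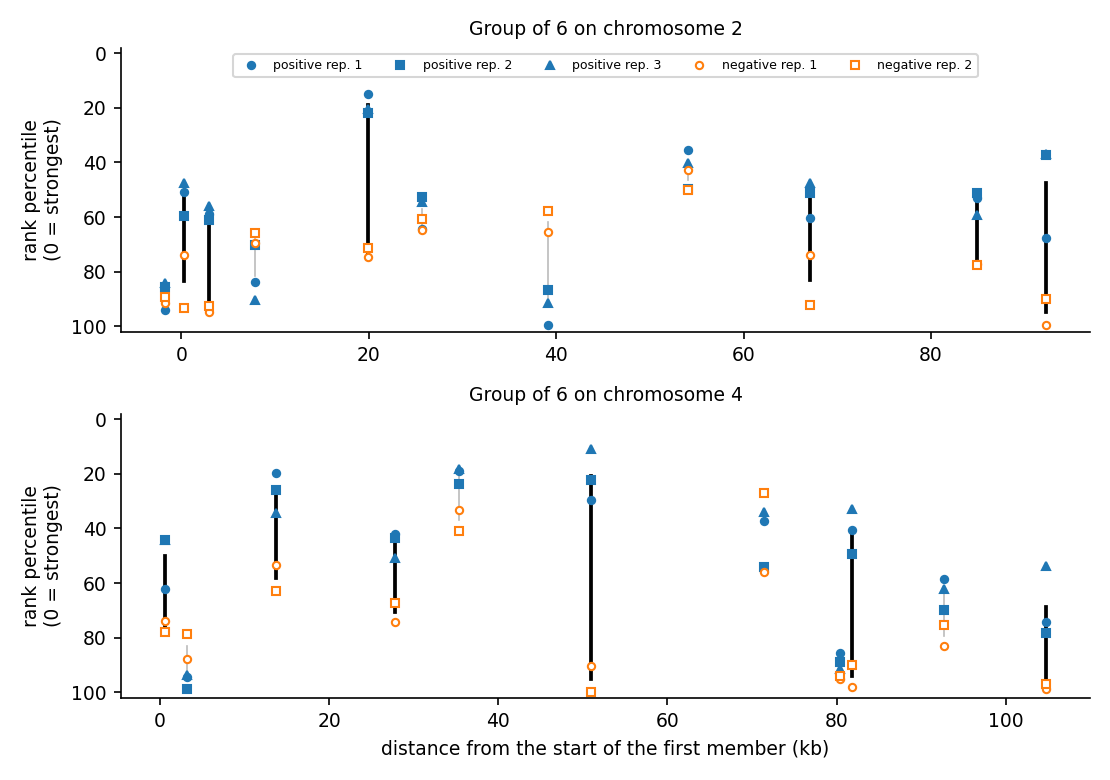
Rank percentile (vertical axis, 0 strongest, reversed) of every shared region in and around the 2 groups of 6 chosen regions, by distance in kb from the start of the first chosen region. Filled blue symbols are positive and open orange symbols negative libraries, black lines join the group means of chosen regions and grey lines those of other shared regions. Of the shared regions in each span, 6 of 10 (chromosome 2) and 6 of 11 (chromosome 4) are chosen regions.

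With 5 chosen regions each, 4 groups tied for the next place, on chromosome 1 from 7009638 to 7105714, chromosome 3 from 98390821 to 98480314, chromosome 6 from 31141279 to 31251521 and chromosome 10 from 14502355 to 14604481. Their spans held 7 to 9 shared regions. The group on chromosome 3 ended in the region with the widest gap, and the 4 chosen regions before it had gaps of 15.6, 16.0, 38.3 and 27.7 points. Its 5 chosen regions were the ones of 7 shared regions in which the positive libraries were stronger without overlap, and none of the 7 was a mirror region.

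Regions listed in a single population were not much closer to the chosen regions than to others. Regions among the kept intervals of all 3 positive libraries with no interval of any rank in a negative list numbered 2479 on numbered chromosomes. Of the chosen regions, 27.6% had such a positive-specific region within 50 kb, against 26.5% of mirror regions and 25.7% of all shared regions. Negative-specific regions, 2301 by the reverse rule, lay within 50 kb of 23.8% of chosen and 24.6% of mirror regions, against 21.0% of all shared regions.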

How the data were processed

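Each of the 5 deposited files is the narrowPeak list of 1 library, called per library. Bowtie2, MACS2 and the build galGal5 are named without versions or settings, per the submitters' processing notes. Treatment of duplicates, mitochondrial reads and the Tn5 shift is not given in the sources used here. The deposited columns hold a fold enrichment (ratio) of each summit over local background, its −log10 p value and −log10 q value, a whole-number score that was 10 times the −log10 q and was not used, and positions. Rows that repeat an interval were merged, and ties in fold enrichment were ordered by −log10 p value, then by position. In negative replicate 2, 1320 intervals shared the fold enrichment at rank 50000.

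Regions needed an overlap of 1 bp. Groups came from the sample titles. The members, the lists and the measures were chosen with earlier results of these data known. Named regions are the 12 with the widest gap, the 5 with the lowest mean positive percentile, 3 on either side of the threshold, the groups with most members (6, because 4 tied) and the extreme chromosomes. Other named regions are marked in the text. No test across regions was made, since regions are not replicates of a library. The rule was also run on simulated lists with planted differences. Those lists had intervals of equal width, independent noise and no naming series, so they do not show how often the rule errs in these libraries. Python 3.11.15, numpy 2.4.6 and pandas 2.3.3 were used. Sequence motifs, gene starts and gene lists were not analysed here, because the gene table used describes another build.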

Additional observations from a re-analysis of the deposited data

How the results depend on the processing

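The order of ties, the alternatives for neighbours and those for the reading across naming series were chosen after seeing the data. With ties broken the other way, 2660 of the 2665 regions were chosen again, and with −log10 p ranking 2078 were, among 2585 (10.3% of the shared regions). The strongest 30000 intervals gave 1316 of 15351 shared regions (8.57%). Among them was none of the 12 with the widest gap, whose negative intervals rank lower by construction. A gap of 20 points gave 1488, the first naming series alone 9004 and the second alone 5192, where fewer libraries make the rule easier to meet. Leaving out each library gave 3479 to 4181, or 13.1% to 15.8% of the shared regions, with 13.2% to 16.3% mirror regions. The groups share replicate numbers 1 and 2. Differences between replicates 1 and 2 correlated at 0.194 between the groups, and 2 pairs cannot show that the numbers pair the libraries. With a replicate block, 4141 regions (16.7% of the shared regions) met a gap of 10 points in both pairs. Longer lists, a gap of 5 points, other width limits, a larger overlap and summit windows kept the count within 1.5 times, although summit windows kept 1 of the 12 widest gaps. Without positive replicate 1 the median width was 683.5 bp, and it was at most 770 bp with any library left out. The share with another chosen region within 50 kb was 35.0% by −log10 p ranking and 39.6% to 43.6% with a library left out, and became 16.6% at 20 kb and 50.4% at 100 kb by construction. The share of mirror regions among neighbours within 5 kb was 18.1% in the second series alone and 13.3% to 19.6% with a library left out, above the share over all neighbours each time. Of regions chosen in the second series, 74.5% held in the first by −log10 p ranking, 60.4% with 30000 intervals and 72.0% with 70000. The shares over all shared regions were 25.7%, 26.9% and 26.8%. Apart from what an alternative sets by its own construction, the cause was not tested. The alternatives for motifs and gene starts were not run. Without read counts, depth could not be matched between libraries.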

Other observations

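The rule left out regions of 2000 bp or more and sequences other than numbered chromosomes, and the same gap can be read there. Of 746 shared regions of 2000 bp or more, 69 (9.25%) were ranked higher in the positive libraries by 10 points and 17 (2.28%) in the negative libraries. Over all 25495 shared regions without the width limit these shares were 10.6% and 10.8%. On chromosome Z, 141 of 1483 shared regions under 2000 bp (9.51%) were ranked higher in positive and 169 (11.4%) in negative libraries. On unplaced and other unnumbered sequences, 24 of 405 (5.93%) were ranked higher in positive and 3 (0.741%) in negative libraries. With those sequences and chromosome Z added, the shares on numbered chromosomes were 10.7% and 10.9% of 24749. These percentiles were taken among the regions with the excluded ones added, and no test was made.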
